A study of Saccharomyces cerevisiae with 12 samples.

Results

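Glycolysis in baker's yeast has several steps at which more than 1 gene codes for the same activity, and 10 such isoenzyme genes were followed here: the hexose kinases HXK1, HXK2 and GLK1, the glyceraldehyde-3-phosphate dehydrogenases TDH1, TDH2 and TDH3, the enolases ENO1 and ENO2, and the pyruvate kinases CDC19 and PYK2. They were taken by name from the table of RNA levels. Of the 10 genes, 9 had a row among the 6053 genes of that table, and ENO1 had none and is not analysed here. The assay was SAGE-tag sequencing: a short tag beside the CATG closest to the 3′ end of each transcript was read and counted, with levels in RPM, tags per gene scaled to a sum of 1000000 in each library. Cells of the deletion strains bmh1∆ and bmh2∆ were kept for 60 min in medium with 50 mM KCl or without KCl (0 mM), with 3 libraries in each of the 4 groups of strain and KCl. Both strains were made in BY4741 (MATa his3Δ1 leu2Δ0 met15Δ0 ura3Δ0), carried bmh1Δ::loxP or bmh2Δ::loxP, and were each represented by a single strain. Cultures of every group were grown at 50 mM KCl in supplemented YNB medium before the transfer. Libraries of BY4741 itself were not used here, so that no level below stands beside one of a strain with both BMH genes.

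Glycolysis turns glucose into pyruvate. Hxk1, Hxk2 and Glk1 phosphorylate glucose as it enters the pathway. Hxk2 is the main hexokinase during growth on glucose and also takes part in glucose repression, while HXK1 and GLK1 are known to be repressed by glucose. The Tdh enzymes oxidize glyceraldehyde-3-phosphate, and Tdh3 is the major and Tdh1 the minor form, known to be linked with stationary phase and stress. Enolase makes phosphoenolpyruvate, from which pyruvate kinase makes pyruvate and ATP. Cdc19 is the major pyruvate kinase, which needs potassium for its activity, and Pyk2 is the minor form, known from cells with low glycolytic flux. BMH1 and BMH2 encode the yeast 14-3-3 proteins, which bind phosphorylated proteins.

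Because isoenzyme genes can be nearly identical, the tags on which the levels may rest are shown first, read from the S288C reference of RefSeq (build R64). Whether the authors matched tags to this build is not known, and the table gives a sum per gene, without saying which tag was counted. The CATG is in capitals, and the bases that follow are in lower case. The last tag in the coding sequence was compared for the pair TDH1 (YJL052W, chromosome X, 338271 to 339269, plus strand) and TDH2 (YJR009C, chromosome X, 453683 to 454681, minus strand), and for the pair HXK1 (YFR053C, chromosome VI, 253592 to 255049, minus strand) and HXK2 (YGL253W, chromosome VII, 23935 to 25395, plus strand).
TDH1, last coding tag: CATGaccgccactcaaaagac
TDH2, last coding tag: CATGaccgccacccaaaagac
HXK1, last coding tag: CATGgatacctcctacccagc
HXK2, last coding tag: CATGgacacttcttacccagc
TDH3, last coding tag, also found in TDH2: CATGggtgttaacgaagaaaa
TDH3, own tag behind the stop codon: CATGtaatatctgtagtagat
The tags of TDH1 and TDH2 differed by 1 base, T13C, where positions count from 1 at the first base of the CATG and the base of the gene named first is given first. Those of HXK1 and HXK2 differed by 3 bases, T7C, C10T and C13T. The last coding tag of TDH3 (YGR192C, chromosome VII, 882812 to 883810, minus strand) also stood in TDH2 without a difference, and the tag that TDH3 does not share lies 162 bases behind its stop codon. The levels of TDH2 and TDH3 are therefore uncertain as far as shared tags were counted. TDH1 is 1 base away from TDH2, the more abundant gene, and its level was between 0.739% and 2.96% of that of TDH2 in the 50 mM KCl libraries and between 4.01% and 14.0% in those without KCl. How many TDH2 tags with a reading error were counted for TDH1 was not tested. Behind the stop codon, TDH2 also has sites at 51, 57 and 296 bases and HXK2 at 60 and 194 bases, with other tag sequences. If these lie in the transcripts, the last coding tags of TDH2 and HXK2 are not the ones closest to the 3′ end. Whether they do was not tested. Sites behind the stop codon were also found for ENO2 (231 and 248 bases), CDC19 (10, 68 and 292 bases) and PYK2 (85 and 172 bases), with the same limit. The ENO2 tag at 248 bases also stood in CTR2, so the level of ENO2 is uncertain as far as that tag was counted.

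In the same reference ENO1 (YGR254W, chromosome VII, 1000927 to 1002240, plus strand) held 0 CATG sites in its coding sequence of 1314 bases, and its first site lay 219 bases behind the stop codon. ENO2 (YHR174W, chromosome VIII, 451327 to 452640, plus strand), of the same length, held 4 in its coding sequence. TPI1, the gene of triosephosphate isomerase, likewise held 0 and had no row. Among the R64 protein-coding genes, 274 of 5508 with a row (4.97%) and 331 of 513 with no matching row (64.5%) had no CATG in the coding sequence.

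**Figure D1:**
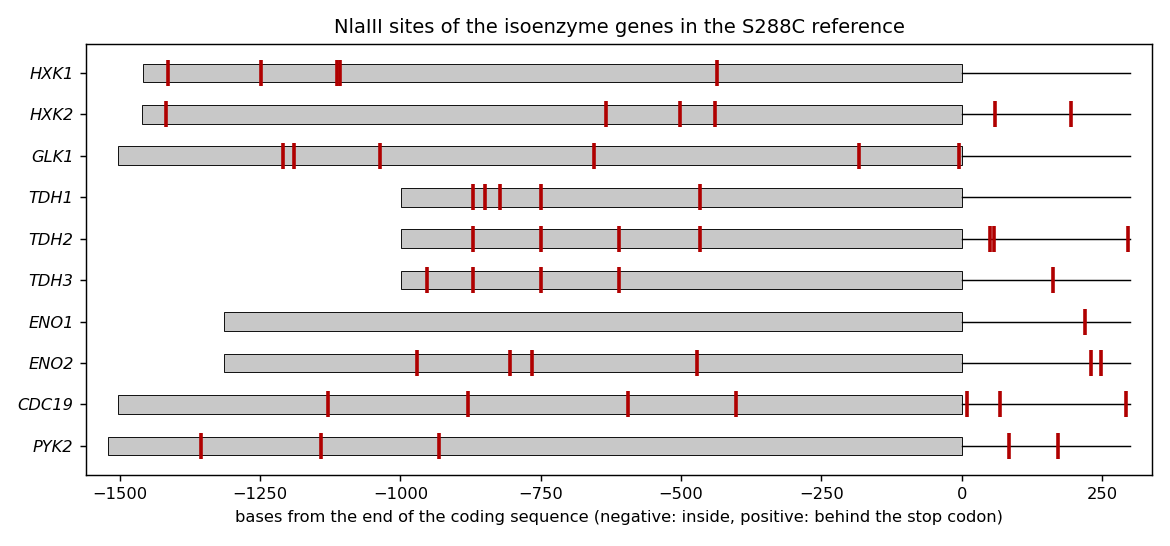
Positions of NlaIII sites, the CATG at which tags begin, in the coding sequence (grey bars) and the 300 bases behind the stop codon (lines) of the 10 isoenzyme genes, in bases from the end of the coding sequence. Red ticks are sites: ENO1 had 0 in the coding sequence and the other genes 3 to 6.

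In bmh1∆ the libraries of a group were of 2 kinds that were less alike, a split that bmh2∆ does not have. By their column names the bmh1∆ libraries GGATAT and CTATAG (50 mM) and GTCACG and TGCACT (0 mM) were read in lane 1. A letter names the remaining ones, B50 and B0 of bmh1∆ and the C, D and E libraries of bmh2∆. The lettered names also carry lane codes, shared by C50, D50, E50 and C0, another shared by B0, D0 and E0, and a further one for B50. Lane and KCl can therefore not be told apart for B50 and B0, and only in part in bmh2∆. No fit held these lanes as a term. Across genes, B50 correlated with the lane 1 libraries of its group with r = 0.655 and 0.699, and B0 with those of its group with r = 0.849 and 0.760. The lane 1 libraries of a group correlated with r = 0.968 at 50 mM KCl and 0.942 at 0 mM KCl. Libraries of the same bmh2∆ group correlated with r = 0.940 to 0.981. If the smallest value of a library is 2 tags, 1 tag was worth 0.0093 RPM in B0 and 0.0135 RPM in GTCACG, the deepest libraries, and 0.0517 to 0.160 RPM in the other 10. When summed in tags, the other lettered and the other lane 1 libraries exceeded B0 and GTCACG in 0 and 1 of 6053 genes, so that these may not be independent. For B0, 6 of those 7 libraries are of bmh2∆, and a comparison of bmh2∆ with B0 may therefore set bmh2∆ partly against its own tags. The same holds for B50 against B0, and for the lane 1 libraries at 50 mM KCl against GTCACG. Fold changes within lane 1 and between B0 and B50 below carry this limit. The members' starvation differences in bmh1∆ are also given without both libraries, as are several other results. BMH2 was at 197 to 505 RPM in bmh1∆ and at most 0.291 RPM in bmh2∆. BMH1 was at 536 to 4170 RPM in the libraries labelled bmh1∆ and at 4048 to 5391 RPM in bmh2∆, but 4 CATG sites lie in the 300 bases behind its stop codon, and tags from outside the deleted part do not check the deletion. Nothing in the labels says that the libraries of a group came from separate cultures, so p-values measure the spread between these libraries, which may be technical. In bulk libraries a smaller share of cells expressing a gene and less RNA per cell cannot be told apart.

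TDH1, the minor dehydrogenase gene, rose on potassium starvation in bmh2∆. In bmh1∆ its level was 64.5, 68.0 and 37.0 RPM in GGATAT, B50 and CTATAG at 50 mM KCl and 450.5, 294 and 585 RPM in GTCACG, B0 and TGCACT at 0 mM KCl. Among the bmh2∆ libraries TDH1 was at 180.4, 31.5 and 117 RPM in C50, D50 and E50 and 661, 297 and 778 RPM in C0, D0 and E0. All 6 libraries at 0 mM KCl were above all 6 at 50 mM KCl, with 180.4 RPM the highest of the latter and 294 RPM the lowest of the former. On the log2(RPM + 1) scale, on which all changes below are given, the difference was 2.59 in bmh2∆ (standard error 0.61, limma, adjusted p = 0.0321) and 2.94 in bmh1∆ (standard error 0.61, limma, adjusted p = 0.0502), where it did not pass the threshold of 0.05. The difference between these responses was -0.35 (standard error 0.86, limma, adjusted p = 0.993). The fit took 1 spread per gene for all 4 groups, so standard errors and p-values here and below are not each strain's own. The groups differed in spread, with median SDs over genes of 0.745 and 0.509 in bmh1∆ at 50 and 0 mM KCl. In bmh2∆ they were 0.244 and 0.320. The call in bmh2∆ was lost without D50 (log2 1.87, limma, adjusted p = 0.110), E50 (adjusted p = 0.0934), C0 (adjusted p = 0.141) or E0 (adjusted p = 0.128). In bmh1∆ the fold change was 10.3 within lane 1 and 4.27 between B0 and B50, and without B0 and GTCACG the log2 difference was 3.40 (limma, adjusted p = 0.101, with 1 library left at 0 mM KCl and assumed to vary like the others). With those libraries left out, the log2 differences in bmh1∆ were 2.58 for HXK1, 2.79 for GLK1, 1.82 for HXK2, 1.18 for TDH2, 0.21 for TDH3, -0.05 for ENO2, 0.47 for CDC19 and 1.80 for PYK2, and none passed (limma, adjusted p = 0.0641 to 0.963).

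TDH2 and TDH3 code for the abundant forms of the same enzyme, and their levels moved much less. TDH3 was at 8686, 10772 and 8358 RPM in bmh1∆ (GGATAT, B50, CTATAG) at 50 mM KCl and at 11208, 11917 and 10642 RPM (GTCACG, B0, TGCACT) at 0 mM KCl. TDH3 in bmh2∆ was at 14554, 9662 and 12699 RPM (C, D, E) at 50 mM KCl and at 13875, 10000.5 and 15913 RPM at 0 mM KCl. The groups overlapped in both strains, with log2 differences of 0.29 in bmh1∆ and 0.10 in bmh2∆ (standard error 0.27, limma, adjusted p = 0.779 and 0.911). TDH2 was at 3682, 2766 and 3824 RPM in bmh1∆ at 50 mM KCl and at 4639, 5819 and 7689 RPM at 0 mM KCl, so that the groups did not overlap, with a log2 difference of 0.80 (standard error 0.29, limma, adjusted p = 0.268). In bmh2∆ the groups of TDH2 overlapped, from 4266 to 6099 RPM at 50 mM KCl and from 5550.0 to 7398 RPM at 0 mM KCl, with a log2 difference of 0.24 (standard error 0.29, limma, adjusted p = 0.758).

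The ratio of 2 genes within a library does not depend on the scaling of that library, and it gave the change in the make-up of the TDH family. The log2 ratio of TDH1 to TDH3 lay between -8.21 and -6.33 in the 6 libraries at 50 mM KCl and between -5.34 and -4.18 in the 6 at 0 mM KCl. It was higher at 0 mM KCl by 2.65 in bmh1∆ and by 2.49 in bmh2∆ (exact permutation test, two-sided, p = 0.1 in each, the smallest that 3 against 3 libraries allow). With labels permuted within strain, the difference over both strains was 2.57, which is 5.95-fold (exact permutation test, p = 0.005, the smallest possible). For TDH1 to TDH2 it was 2.24 over both strains, or 4.73-fold (exact permutation test, p = 0.005). Over the 35 comparisons made of 7 ratios, these p-values became 0.0875 after Benjamini-Hochberg adjustment, which is above 0.05. Leaving out B0 and GTCACG gave 2.84 for TDH1 to TDH3 and 2.28 for TDH1 to TDH2 (exact p = 0.0125 in each). TDH1 made up 0.440% ± 0.120 of the TDH family in bmh1∆ and 0.578% ± 0.325 in bmh2∆ with 50 mM KCl, and 2.50% ± 0.769 and 2.81% ± 0.989 at 0 mM KCl (SD, n = 3). The family remained mostly TDH3, with group means of 63.7% to 72.5%, and TDH2 held 27.1% to 33.8%. The ratio of TDH2 to TDH3 differed by 0.33 over both strains (exact permutation test, p = 0.25), and in each strain its groups overlapped. Without B0 and GTCACG it differed by 0.56 over both strains (exact p = 0.25).

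**Figure D2:**
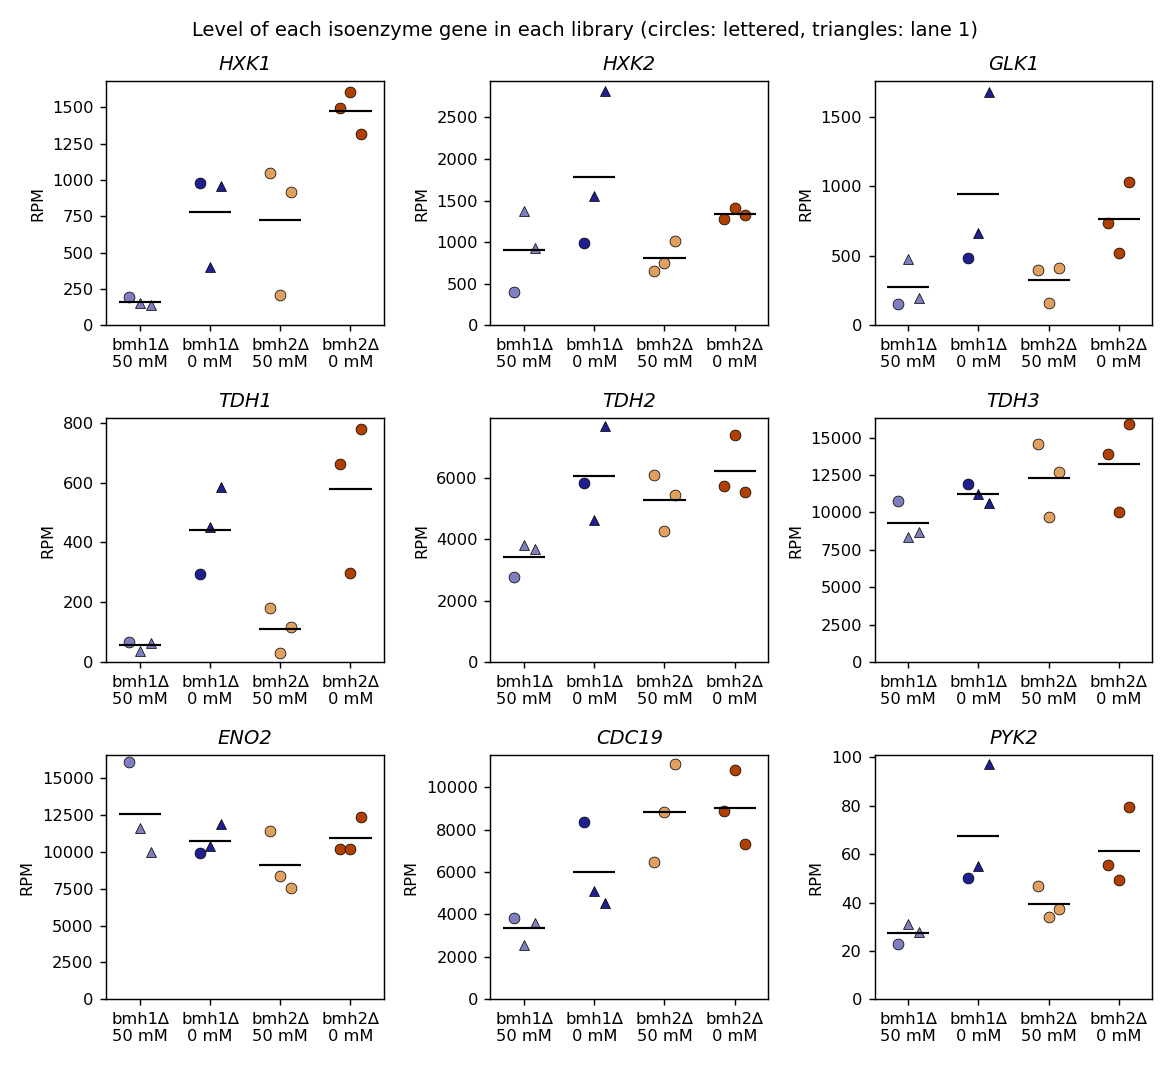
RPM of the 9 isoenzyme genes in each of the 12 libraries by strain and KCl, with a black line at the group mean, circles for libraries named by a letter and triangles for lane 1. TDH1 was between 31.5 and 180.4 RPM at 50 mM KCl and between 294 and 778 RPM at 0 mM KCl.

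HXK1, a glucose-repressed hexokinase gene, was higher at 0 than at 50 mM KCl in every library of each strain, but in neither did it pass the test. In bmh1∆ it was at 141, 190.4 and 150.3 RPM (GGATAT, B50, CTATAG) and then at 397, 978 and 960.3 RPM (GTCACG, B0, TGCACT), a log2 difference of 2.17 (standard error 0.57, limma, adjusted p = 0.120). In bmh2∆ it was at 1049, 206 and 915 RPM (C, D, E) and then at 1496, 1607 and 1315 RPM, a log2 difference of 1.33 (standard error 0.57, limma, adjusted p = 0.227). D50 stood apart from C50 and E50 and was close to the bmh1∆ libraries at 50 mM KCl, and without it the log2 difference in bmh2∆ was 0.58 (limma, adjusted p = 0.687). GLK1, the glucokinase gene (YCL040W, chromosome III, 50838 to 52340, plus strand), was likewise higher at 0 mM KCl without overlap and did not pass. It shares 2 tags with YCL042W, a gene that overlaps its start in R64 and has no row in the table. GLK1 was at 198, 150.5 and 477 RPM in bmh1∆ at 50 mM KCl and at 663, 485 and 1683 RPM at 0 mM KCl, a log2 difference of 1.75 (standard error 0.58, limma, adjusted p = 0.223). In bmh2∆ it went from 399.7, 161 and 411 RPM to 737, 521 and 1029 RPM in C, D and E, a log2 difference of 1.30 (standard error 0.58, limma, adjusted p = 0.252). Within the lane 1 libraries of bmh1∆ the fold changes were 4.22 for HXK1 and 3.43 for GLK1, and between B0 and B50 they were 5.11 and 3.21.

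HXK2, the main hexokinase gene, was the most abundant of the 3 in bmh1∆. It was at 928, 401 and 1369 RPM in bmh1∆ at 50 mM KCl and at 1555, 991 and 2818 RPM at 0 mM KCl, with overlap and a log2 difference of 1.03 (standard error 0.48, limma, adjusted p = 0.435). In bmh2∆ it went from 657, 744 and 1014 RPM to 1275, 1416 and 1321 RPM without overlap, a log2 difference of 0.75 (standard error 0.48, limma, adjusted p = 0.457). The sum of the 3 hexose kinase genes was 1335 ± 630 RPM (bmh1∆) and 1852 ± 653 RPM (bmh2∆) with 50 mM KCl, and 3511 ± 1691 RPM and 3573 ± 82.5 RPM without KCl (SD, n = 3).

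The make-up of the hexose kinases varied within the groups. HXK2 held 65.3% ± 10.0 of the RPM of the family in bmh1∆ at 50 mM KCl and 50.5% ± 9.58 at 0 mM KCl, and 47.2% ± 18.2 and 37.4% ± 2.17 in bmh2∆ (SD, n = 3). HXK1 held 14.8% ± 9.60, 24.2% ± 13.6, 35.8% ± 15.9 and 41.3% ± 4.88 in the same order, and GLK1 between 17.0% and 25.3%. Over both strains, starvation moved the log2 ratio of GLK1 to HXK2 by 0.63 (exact permutation test, p = 0.06), that of HXK1 to HXK2 by 0.86 (p = 0.16) and that of GLK1 to HXK1 by -0.23 (p = 0.63). None of these passed, although the first reached an exact p of 0.02 without C50 and of 0.03 without D0. Between the strains, GLK1 to HXK1 was lower in all bmh2∆ libraries at 50 mM KCl by 1.57 on the log2 scale (exact permutation test, p = 0.1, the smallest possible), with B50 (-0.34) and D50 (-0.35) nearly equal, and HXK1 to HXK2 was higher in all bmh2∆ libraries at 0 mM KCl by 1.32 (exact p = 0.1). Against B50 alone the first difference was -0.63. The second was 0.16 against B0 alone, which may hold bmh2∆ tags, and 1.69 without B0 and GTCACG (exact p = 0.25, the smallest possible there). Over both strains without these libraries, the starvation differences were 0.76 for GLK1 to HXK2, 0.67 for HXK1 to HXK2 and 0.09 for GLK1 to HXK1 (exact p = 0.125, 0.425 and 0.9), the last with the opposite sign.

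**Figure D3:**
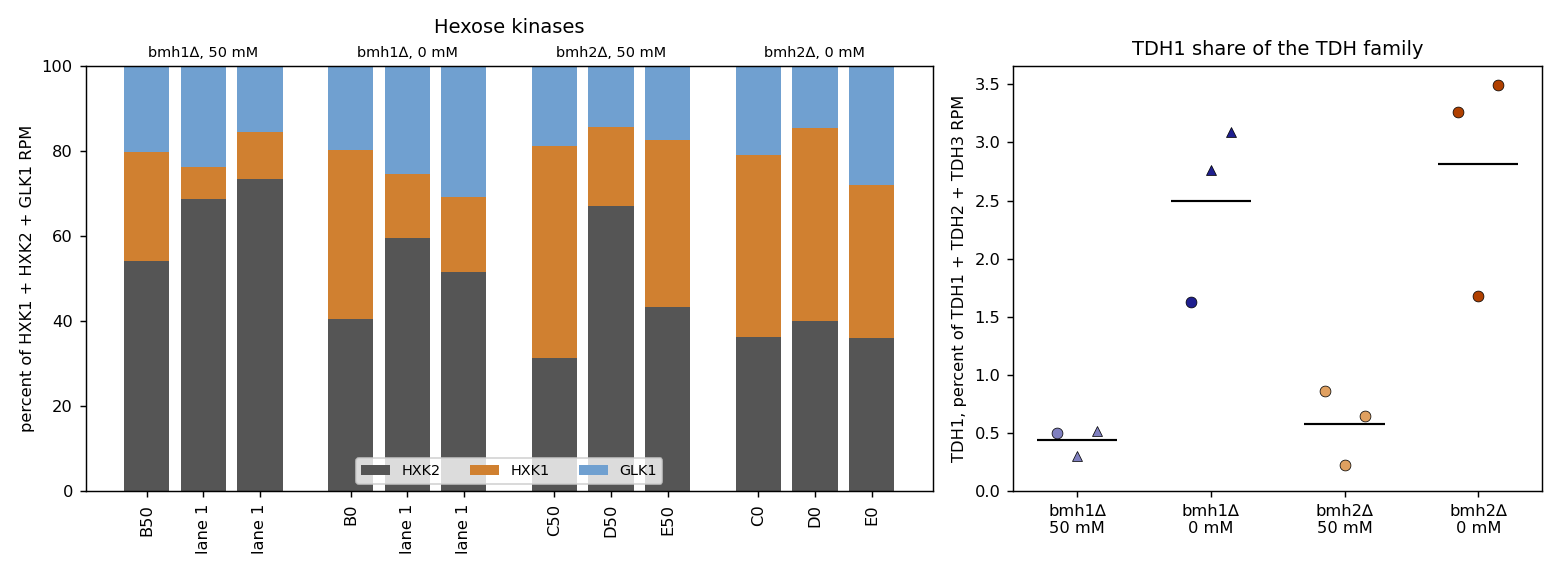
Left, shares of HXK2, HXK1 and GLK1 in the summed RPM of the hexose kinase genes in each library, named by letter or by lane 1, with group names above the bars. Right, TDH1 in percent of the summed RPM of TDH1, TDH2 and TDH3 in each library, with group means as lines: 0.226% to 0.866% with 50 mM KCl and 1.63% to 3.50% without KCl.

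CDC19, the major pyruvate kinase gene (YAL038W, chromosome I, 71786 to 73288, plus strand), had its lowest levels in bmh1∆ at 50 mM KCl, at 3619, 3855 and 2549 RPM in GGATAT, B50 and CTATAG. At 0 mM KCl it was at 5099, 8372 and 4549 RPM in GTCACG, B0 and TGCACT, above all of these, with a log2 difference of 0.82 (standard error 0.33, limma, adjusted p = 0.338). In bmh2∆ CDC19 was at 6491, 8846 and 11068 RPM (C, D, E) at 50 mM KCl and at 8892, 10782 and 7313 RPM at 0 mM KCl, and the log2 difference was 0.05 (standard error 0.33, limma, adjusted p = 0.976). The difference between the responses, -0.77, had an adjusted p of 0.993 (standard error 0.47, limma). PYK2, the minor pyruvate kinase gene (YOR347C, chromosome XV, 984942 to 986462, minus strand), was the least abundant isoenzyme gene in every library but D50, where TDH1 was lower. Its level was 27.9, 22.8 and 31.3 RPM in bmh1∆ at 50 mM KCl and 54.9, 50.2 and 97.1 RPM at 0 mM KCl, a log2 difference of 1.22 (standard error 0.32, limma, adjusted p = 0.120). For bmh2∆ the levels were 46.9, 34.1 and 37.4 RPM and then 55.4, 49.3 and 79.5 RPM, a log2 difference of 0.61 (standard error 0.32, limma, adjusted p = 0.348). All 6 libraries at 0 mM KCl were thus above the 6 at 50 mM KCl, although the lowest of the former, 49.3 RPM, was close to the highest of the latter, 46.9 RPM. PYK2 made up 0.479% to 1.25% of the pyruvate kinase RPM as group means, and its log2 ratio to CDC19 differed by 0.48 over both strains (exact permutation test, p = 0.22). Without B0 and GTCACG this difference was 0.95 (exact p = 0.05), and in bmh1∆ it was 1.34 in place of 0.40.

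ENO2, the enolase gene expressed strongly on glucose, showed no change that passed in any comparison. It was at 9954, 16097 and 11623 RPM in bmh1∆ at 50 mM KCl and at 10401, 9943 and 11904 RPM at 0 mM KCl, with a log2 difference of -0.20 (standard error 0.28, limma, adjusted p = 0.861). The sign turned with the libraries, since the log2 difference was 0.05 within lane 1 and -0.69 between B0 and B50, which held the highest level. In bmh2∆ it was at 11395, 8345 and 7560 RPM (C, D, E) and then at 10192, 10160.4 and 12361 RPM, a log2 difference of 0.28 (standard error 0.28, limma, adjusted p = 0.690).

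**Figure D4:**
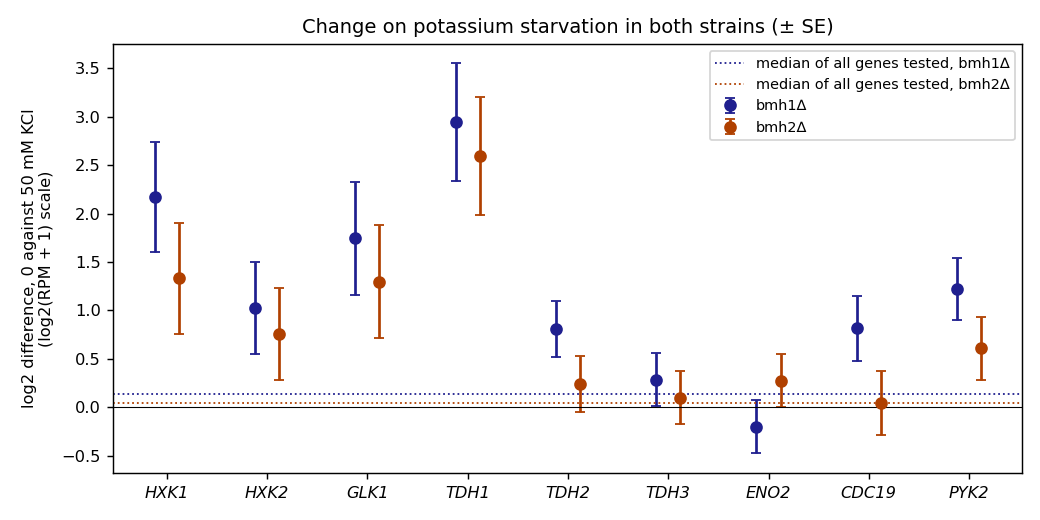
log2 difference between 0 and 50 mM KCl of the 9 isoenzyme genes in bmh1∆ and bmh2∆ on the log2(RPM + 1) scale, with standard errors from limma and the median of all 5278 genes tested as dotted lines. TDH1 had the largest value in both strains (2.94 and 2.59), and ENO2 the lowest in bmh1∆ (-0.20).

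Of the 9 genes, 1 passed the test for starvation in bmh2∆ (TDH1, higher), beside 5.53% of all 5278 genes tested that passed in either direction there and 2.9% that passed as higher, and 0 passed in bmh1∆, beside 0.966% of all genes. The count in bmh1∆ depended on how the libraries of lane 1 and those with a letter were treated. A term for lane 1 against lettered names is called the run below, though the column names state no sequencing run. This term does not separate the lanes of the lettered libraries. With it, 5 members passed there, HXK1, HXK2, GLK1, TDH1 and PYK2 (limma, adjusted p = 0.00801 to 0.0410), beside 460 of all genes. At an unadjusted p under 0.05 the counts were 3 in bmh2∆ and 6 in bmh1∆, beside 19.2% and 11.7% of all genes. At 0 mM KCl the libraries lay above all of those at 50 mM KCl without overlap for 6 of 9 genes in bmh1∆ (background 9.44%) and for 5 of 9 in bmh2∆ (background 20.2%). For 4 genes, HXK1, GLK1, TDH1 and PYK2, this held in both strains, beside 5.65% of all genes. The median log2 difference of the 9 genes was 1.03 in bmh1∆ and 0.61 in bmh2∆, where the medians of all genes tested were 0.14 and 0.05. Under quantile normalization and under median-of-ratios scaling the median of all genes in bmh1∆ shifted by -0.17, and no member other than ENO2, TDH3 and CDC19 had a change of sign in starvation under any setting tried. The interaction passed for 0 of 9 genes in limma, with 0 also at an unadjusted p under 0.05, beside 0% of all genes after adjustment and 3.2% before it. Without B0 and GTCACG it passed for 0 of 9 as well (limma, adjusted p = 0.863 to 0.949), with values from -1.49 for GLK1 to 0.32 for ENO2.

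Between the strains, 0 of 9 genes passed at 50 mM KCl, where 0.0568% of all genes did, and 0 at 0 mM KCl, where 0.0189% did. At an unadjusted p under 0.05, 2 members, HXK1 and CDC19, were among 16.6% of all genes at 50 mM KCl, and 0 members were among 11.5% at 0 mM KCl. All bmh2∆ libraries were above all bmh1∆ libraries at 50 mM KCl for HXK1, TDH2, CDC19 and PYK2 (4 of 9 genes, background 10.7%), and at 0 mM KCl for HXK1 alone (background 6.57%). The log2 difference of HXK1 was 1.87 at 50 mM KCl (standard error 0.57, limma, adjusted p = 0.205) and 1.03 at 0 mM KCl (adjusted p = 0.396). That of CDC19 was 1.39 at 50 mM KCl (standard error 0.33, limma, adjusted p = 0.155) and 0.62 at 0 mM KCl (adjusted p = 0.396). Among the libraries named by a letter, where bmh1∆ has 1 library at each KCl concentration, these were 1.61 and 0.59 for HXK1 and 1.16 and 0.09 for CDC19, where the values at 0 mM KCl rest on B0. Without B0 and GTCACG the differences at 0 mM KCl were 0.61 for HXK1 and 0.97 for CDC19 (limma, adjusted p = 0.617 and 0.261), and those of GLK1 and HXK2 were -1.20 and -1.08 in place of -0.15 and -0.29 (adjusted p = 0.344 and 0.312). Without B50, HXK1 and CDC19 passed at 50 mM KCl (limma, adjusted p = 0.0393 and 0.0163), but so did many others, 1340 of all genes tested. Without D50, HXK1 passed there (limma, adjusted p = 0.0373), beside 15 of all genes tested.

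**Figure D5:**
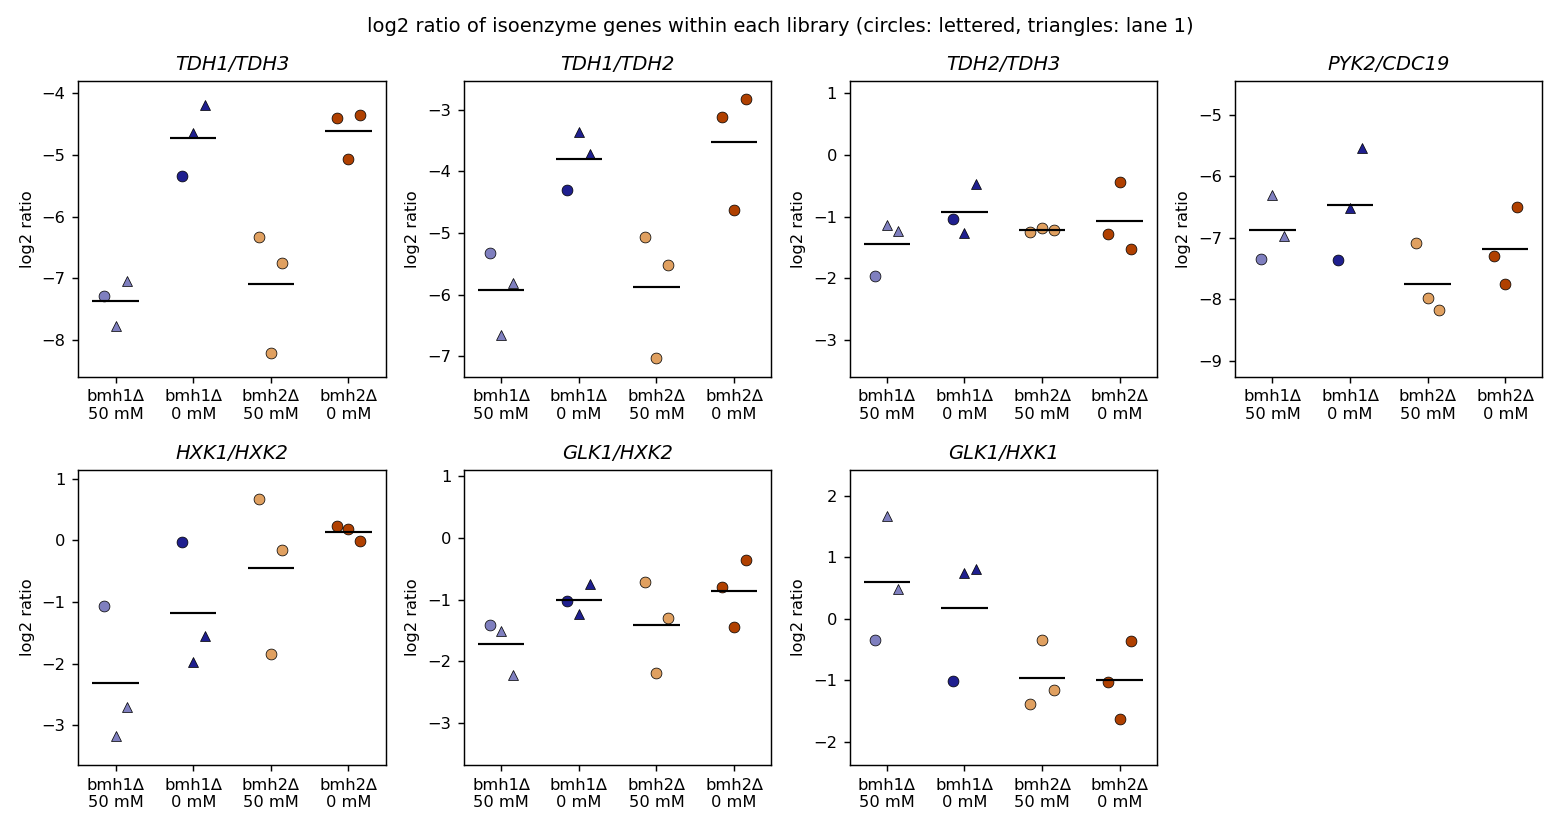
log2 ratio of isoenzyme genes within each library by strain and KCl, with group means as lines, circles for libraries named by a letter and triangles for lane 1. Every panel spans the same number of log2 units. The ratios of TDH1 to TDH3 and to TDH2 separate 0 from 50 mM KCl in both strains, whereas TDH2/TDH3 lies between -1.96 and -0.43 in all libraries.

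By mean RPM over the 12 libraries, TDH3 (rank 7 of 6053 genes) and ENO2 (rank 8) stood next to each other, followed by CDC19 (rank 12) and TDH2 (rank 20). HXK2 (rank 137), HXK1 (rank 199), GLK1 (rank 259) and TDH1 (rank 476) followed, and PYK2 came last (rank 2551). The ranges of neighbours in this order overlapped throughout, but within a library TDH2 was above HXK2, and GLK1 above TDH1, in 12 of 12 libraries, whereas TDH3 was above ENO2 in 7 of 12. A transcript gives 1 tag whatever its length, so these levels in RPM were not divided by length. Together the 9 genes made up 2.73% to 4.57% of the tags of a library.

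The members with the larger differences were compared with the others for the pentamer AGGGG, the core of the stress response element bound by Msn2 and Msn4, searched on both strands in 300 bases beginning 400 bases before the ATG in R64. It was present 3 times before GLK1, 2 times before TDH3, and 1 time before HXK1, TDH1, CDC19 and PYK2. It was not found before HXK2, TDH2, ENO1 and ENO2. Of 6020 regions of the same length, 23.5% held it at least 1 time and 4.10% at least 2 times. The windows of TDH1 (chrX:337871-338170, plus strand) and TDH3 (chrVII:883911-884210, minus strand), the pair whose ratio moved most, are shown with the pentamer, or CCCCT on the other strand, in capitals.
TDH1: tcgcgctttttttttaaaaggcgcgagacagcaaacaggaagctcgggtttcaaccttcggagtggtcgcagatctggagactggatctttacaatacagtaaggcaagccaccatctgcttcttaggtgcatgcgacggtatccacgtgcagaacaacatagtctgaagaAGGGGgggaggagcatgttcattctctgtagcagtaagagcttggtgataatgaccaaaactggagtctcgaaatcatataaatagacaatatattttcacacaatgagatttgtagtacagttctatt
TDH3: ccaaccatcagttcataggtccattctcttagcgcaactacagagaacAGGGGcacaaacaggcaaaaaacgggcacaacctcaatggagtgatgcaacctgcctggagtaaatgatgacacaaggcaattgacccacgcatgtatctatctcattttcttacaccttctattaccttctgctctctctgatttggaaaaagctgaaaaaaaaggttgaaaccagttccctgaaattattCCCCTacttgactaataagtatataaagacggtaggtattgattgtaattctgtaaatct
AGGGG thus stood before HXK1, GLK1, TDH1 and PYK2, the 4 genes higher without overlap in both strains, and before TDH3 and CDC19. TDH3, whose level differed little, held it 2 times and TDH1 1 time. By size of the difference the split was less clear. HXK2, without the pentamer, had log2 differences of 1.03 in bmh1∆ and 0.75 in bmh2∆. Of the genes with it, PYK2 had 1.22 and 0.61 and CDC19 0.82 and 0.05. Any part of the motif in the levels was not tested. Further motifs were CTTCC, the core bound by Gcr1, in 6 of the 10 windows (46.9% of all regions), and ACCCNNNCA, a core bound by Rap1, before TDH3 alone (8.90% of all regions). A match describes letters and not a bound site.

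Around the isoenzymes, the other glycolytic enzymes PGI1, PFK1, PFK2, FBA1, PGK1 and GPM1 gave 0 of 6 calls in either strain in limma (2 in bmh1∆ and 0 in bmh2∆ at an unadjusted p under 0.05, where the shares of all genes were 11.7% and 19.2%, which also stand beside the unadjusted counts that follow), with a median log2 difference of 0.40 in bmh1∆ and 0.11 in bmh2∆. PFK2, a subunit of phosphofructokinase, lay without overlap higher at 0 mM KCl in bmh1∆ (log2 1.04, limma, adjusted p = 0.218). The minor paralogs gave 0 of 4 calls, with 1 in each strain before adjustment. Among them EMI2, a paralog of GLK1, was higher at 0 mM KCl without overlap in both strains (log2 1.13 and 0.96, limma, adjusted p = 0.292 and 0.245). The kinases and the phosphatase that set fructose-2,6-bisphosphate, PFK26, PFK27 and FBP26, gave 0 of 3 calls before and after adjustment. Of 9 genes of glucose repression 0 passed in either strain (limma, 1 in each before adjustment), and of 6 tested genes of gluconeogenesis 0 passed (2 in bmh1∆ and 4 in bmh2∆ before adjustment, beside 11.7% and 19.2% of all genes).

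Of 6 genes for transcription factors of glycolytic genes, 1 passed, RAP1 in bmh2∆, where 5.53% of all genes did, and 0 in bmh1∆ and 3 in bmh2∆ had an unadjusted p under 0.05, beside 11.7% and 19.2% of all genes. RAP1 encodes a factor of glycolytic, ribosomal protein and telomeric loci. RAP1 was at 66.2, 81.5 and 78.6 RPM in C50, D50 and E50 and at 13.9, 14.3 and 11.0 RPM in C0, D0 and E0, and fell by 2.44 on the log2 scale (standard error 0.43, limma, adjusted p = 0.0132). The call was lost without D50, E50, C0 or E0, where the adjusted p was 0.0574 to 0.0685. In bmh1∆ RAP1 was at 71.0, 29.8 and 65.9 RPM at 50 mM KCl and at 42.0, 41.7 and 15.2 RPM at 0 mM KCl, with overlap and a log2 difference of -0.77 (standard error 0.43, limma, adjusted p = 0.566). The difference between the responses of RAP1 was -1.67 (limma, adjusted p = 0.993). Both values depended on B0 and GTCACG, without which the log2 difference in bmh1∆ was -1.71 (adjusted p = 0.143) and that between the responses -0.73 (adjusted p = 0.863). GCR1, the main activator of glycolytic genes, was at 15.7, 11.9 and 10.2 RPM and then at 40.3, 19.0 and 41.4 RPM in C, D and E of bmh2∆ (log2 1.29, limma, adjusted p = 0.0762).

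Targets of the stress factors Msn2 and Msn4 were listed because several minor isoenzymes are known to respond to stress. In limma 5 of 11 tested targets had an unadjusted p under 0.05 in bmh1∆ and 6 in bmh2∆, beside 11.7% and 19.2% of all genes. Of the 11 targets, 11 had a log2 difference above 0 in bmh1∆ and 10 in bmh2∆, beside 60.7% and 53.3% of all genes. The medians of the targets were 1.45 and 1.32, where those of all genes were 0.14 and 0.05. TSL1, a subunit of trehalose-6-phosphate synthase, was the 1 target that passed, in bmh1∆ (log2 2.26, limma, adjusted p = 0.0474), but it passed under 6 of 23 alternatives and, with 1 of the 12 libraries left out, only without GTCACG, the other adjusted p-values being 0.0586 to 0.185. TPS1, the catalytic subunit, and CTT1, the cytosolic catalase, were higher without overlap in both strains and did not pass. HSP12 had log2 differences of 0.12 and 0.04. The part of a stress response in the isoenzyme levels was not tested.

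As a description, the genes most like each member over the 12 libraries were sought among 4672 genes. These libraries differ in run (lane 1 or lettered) and in depth, and both can enter the correlations. TDH1 was most like HFD1 (Pearson r = 0.946), KIN82 (r = 0.945) and MMT2 (r = 0.940). HXK1 was most like EMI2 (r = 0.975), PIC2 (r = 0.974) and FMP16 (r = 0.959), and GLK1 was most like AIM17 (r = 0.964), CTH1 (r = 0.961) and HOL1 (r = 0.948). HXK2 was most like VTI1 (r = 0.990), YJL127C-B and YJL016W (r = 0.982 each), TDH2 most like TSL1 (r = 0.953), YLR177W (r = 0.939) and YOR292C (r = 0.938), and CDC19 most like WAR1 (r = 0.968), TWF1 and DJP1 (r = 0.964 each). For PYK2 they were PAM18 (r = 0.938), IML2 (r = 0.932) and PXA2 (r = 0.928), for TDH3 PBN1 (r = 0.901), VPS3 (r = 0.899) and CEP3 (r = 0.897), and for ENO2 ATG21 (r = 0.917), AIM25 (r = 0.906) and PBS2 (r = 0.896). Among the members themselves, PYK2 and GLK1 were most alike (r = 0.921), and CDC19 and ENO2 least (r = -0.587).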

How the data were processed

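Strains bmh1∆ and bmh2∆ were sampled after 60 min at 50 or 0 mM KCl. The deposited values are RPM per gene: the authors trimmed the reads and counted tags for each annotated gene, and each library sums to 1000000. The authors' software, genome build and annotation were not given in the sources used here. Column names give strain and KCl but no replicate number, so libraries are called by letter or index.

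Genes that reached 3 RPM in 3 or more libraries (5278 of 6053, all 9 members with a row) were tested with limma 3.58.1 in R 4.3.3 on log2(RPM + 1), with 1 mean per group in 1 fit of 12 libraries, trend and robust on, two-sided, and Benjamini-Hochberg adjustment over all genes tested. Values are not counts, so no count model was used. The fit was tested on simulated data with independent libraries and the same spread of a gene in all groups. That test therefore does not cover the unequal spread of the groups or libraries that may not be independent. Ratios of isoenzymes were compared by exact permutation. Python 3.11.15 with pandas 2.3.3, NumPy 2.4.6 and matplotlib 3.10.9 was used. Tags and upstream windows came from the S288C genome (R64).

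The members and lists were chosen with earlier results of these data known. Named are all members, listed genes that passed (up to 4 per list), and the 3 genes of at least 10 mean RPM most correlated with each member. Some further listed genes were named after their values were seen (PFK2, EMI2, GCR1, TPS1, CTT1, HSP12). Alternatives were other pseudocounts, filters and scalings, limma without trend and robust, a fit of the groups compared, a replicate block, the run as a term, and leaving out libraries. Values within lane 1 and within the lettered libraries were added after seeing the data.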

Additional observations from a re-analysis of the deposited data

How the results depend on the processing

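Counts of genes that passed moved more than the members' values. The main counts were 51 for starvation in bmh1∆, 292 in bmh2∆, 3 (50 mM KCl) and 1 (0 mM KCl) for bmh2∆ against bmh1∆, and 0 for the interaction. In bmh1∆ the count was 26 with median-of-ratios scaling and 2 with only the groups compared. It was 460 with the run, meaning lane 1 against lettered names, as a term. Without B0 and GTCACG, which leaves 1 bmh1∆ library at 0 mM KCl, it was 117. In bmh2∆ it was 1254 with only the groups compared and 1062 with the run as a term. Leaving out 1 library each gave 19 (GGATAT) to 81 (B50) in bmh1∆, 28 (C0) to 655 (B50) in bmh2∆, 1 to 1340 (B50) and 1 to 22 (TGCACT) for bmh2∆ against bmh1∆ at the 2 concentrations, and 0 to 3 (D50) for the interaction. TDH1 in bmh1∆ passed without trend and robust (adjusted p = 0.0485), without B50 (0.0461), without D50 (0.0160) and with the run as a term (0.00801), which also brought HXK1, HXK2, GLK1 and PYK2 past the threshold there (limma, adjusted p = 0.0169 to 0.0410). HXK1 in bmh1∆ also passed without D50 (0.0299), and HXK2 and GLK1 in bmh2∆ with only the groups compared (0.0329 and 0.0420). The cause was not tested. The log2 differences of TDH1 ranged from 2.09 to 3.40 in bmh1∆ and from 1.87 to 3.11 in bmh2∆ over these alternatives and the values within lane 1 and the lettered libraries.

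The labels number replicates alike in all groups, but the column names carry letters instead. As a check of pairing, the deviations of libraries with the same letter correlated with r = 0.071 for C, 0.245 for D, -0.291 for E and 0.876 for B, so the letters were not taken to pair the libraries. With a replicate block by letter the counts were 311 and 946 for starvation in bmh1∆ and bmh2∆, 1523 (50 mM KCl) and 2233 (0 mM KCl) for the strains, and 0 for the interaction. In this block the lane 1 libraries of bmh1∆, which have no letter, shared a level with C50 and C0, while B50 and B0 had their own. The strain comparisons therefore set lane 1 against lettered libraries, and strain and lane 1 cannot be told apart in them. With this block HXK1, GLK1, TDH1 and PYK2 passed for starvation in bmh1∆, GLK1 in bmh2∆, and HXK1 (50 and 0 mM KCl) and CDC19 (50 mM KCl) for the strains (limma, adjusted p = 0.00131 to 0.0482). TDH1 in bmh2∆, which passed in the main fit, passed with the block as well. The fit of only the groups compared was not run for the interaction, which involves all groups.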
